A study of Mus with 9 samples.

Results

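The HoxA cluster is a row of homeobox genes on mouse chromosome 6. Its 9 genes named here, Hoxa2, Hoxa3, Hoxa4, Hoxa5, Hoxa6, Hoxa7, Hoxa9, Hoxa10 and Hoxa11, were taken by gene symbol from a count table of 54532 genes, and each matched 1 entry. The table holds RNA sequencing counts of bone marrow cells from 9 libraries in 3 groups of 3. According to the labels, fetal liver cells of embryonic day 12.5 from a conditional AML1-ETO knock-in mouse, in which the fusion carries an mCherry tag, were infected with an MSCV-IRES-EGFP retrovirus. Cells positive for mCherry and GFP were then given to lethally irradiated C57BL/6 mice together with supportive cells. The virus was empty in the group Vec, carried wild-type CCND2 (cyclin D2, which with CDK4 and CDK6 drives cells out of G1) in CCND2wt, and carried CCND2 with alanine in place of threonine at residue 280 in CCND2mut. All 3 groups thus carry AML1-ETO, a fusion of RUNX1 with RUNX1T1 found in acute myeloid leukaemia, so there is no group without it. The labels give neither the recipients' age nor the time after transplantation, and marrow taken whole can also hold cells of the host and of the supportive graft.

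Hox genes encode transcription factors that bind DNA through a homeodomain, and they lie along a cluster in the order in which they pattern the body axis. In blood, several HoxA genes are active in stem and early progenitor cells and are switched off as cells mature. Hoxa9 is the member most closely tied to self-renewal and leukaemia, where its protein acts on DNA together with the TALE homeodomain proteins MEIS1 and PBX. Histone methylation by the KMT2A (MLL) complex with menin keeps the cluster active, and Polycomb complexes silence it.

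Levels are in CPM (counts scaled to a common library size, here with TMM factors). Group values are mean ± SD (n = 3 libraries), and differences are given as log2 fold changes with their standard error (SE). Total counts were 15043755 to 17593634 per library, at which 1 count was worth 0.0529 to 0.0679 CPM. A fold change was called at a Benjamini-Hochberg adjusted p under 0.05 in edgeR's quasi-likelihood test over 15660 genes. Nothing in the labels says that libraries of a group come from separate animals, so the p-values measure only how these libraries vary, which can be technical variation. The CCND2wt libraries were the closest to each other, with a chi-square between paired count columns averaging 7.0 to 17.7 over genes, against 53.3 to 148 within the other groups. The gene of the labels, Ccnd2, stood at 76.2, 79.0 and 86.2 CPM in Vec 1, 2 and 4. It stood at 7.30, 9.29 and 11.1 CPM in CCND2wt 2, 3 and 4, and at 12.6, 58.2 and 51.1 CPM in CCND2mut 1, 2 and 3. Mouse Ccnd2 counts were thus lower than in Vec in every library whose label names added cyclin D2. Whether the added CCND2 is the mouse or the human gene could not be settled, nor whether labels were exchanged. Reads of a human gene need not be counted as mouse Ccnd2, so these counts may not measure the added gene. Every direction below holds for libraries by their labels only. All 5 general markers of blood cells (such as Ptprc, the CD45 antigen) were detected in every library. Their summed level was 1919 to 2287 CPM in Vec, 1160 to 1200 CPM in CCND2wt and 1838 to 2826 CPM in CCND2mut. In edgeR 4 of the 5 fell and 0 rose in CCND2wt against Vec, where 9.05% of all tested genes fell. Against CCND2wt 4 of the 5 rose and 0 fell in CCND2mut, where 23.2% of all tested genes rose. Of 10 markers of stroma, endothelium and bone, from 5 (CCND2mut 2) to 10 (Vec 1) had a count in each library. Among them Col3a1, a collagen of connective tissue, was at 0 in every library but Vec 1.

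The 9 genes span 52162417 (start of Hoxa2) to 52245810 (end of Hoxa11) on chromosome 6 in the coordinates of the deposited table, for which the submitters' processing notes name the build mm10, and all lie on the minus strand. Hoxa2 comes first and Hoxa11 last in coordinate order, and Hoxa13 lies outside, beyond Hoxa11. Several annotations overlap. The span of Hoxa3 (52169062 to 52213336) covers Hoxa4 (52189671 to 52191753), Hoxa5 (52201754 to 52204587) and Hoxa6 (52206288 to 52208722) on the same strand. The antisense RNA Hoxaas3 runs over Hoxa3 to Hoxa7 on the other strand. A predicted gene, Gm28308, overlaps Hoxa2 to Hoxa6 on the minus strand and held 0 counts in all 9 libraries. Neither the labels nor the notes say how reads shared by overlapping genes were counted or whether strand was used, so the values of Hoxa2 to Hoxa7 are uncertain to that extent. Hoxa7 (52214491 to 52221854) overlaps only Hoxaas3, and Hoxa9 (52223100 to 52231089) only the microRNA gene Mir196b, which held 0 counts. Hoxa11 overlaps the antisense RNA Hoxa11os. Hoxa10 (52231197 to 52240854) overlaps no other gene.

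Along the cluster, RNA peaked at Hoxa7 and ended sharply after Hoxa9. Genes are compared here per length, as CPM per kilobase of the gene length in the deposited table. In Vec, Hoxa7 stood highest at 3.32 ± 1.07 CPM per kilobase, and its lowest library (2.54) lay above the highest library of Hoxa5 (2.32). Hoxa5 followed at 1.79 ± 0.650 and Hoxa9 at 0.973 ± 0.341 CPM per kilobase, and the ranges of these neighbours overlapped, although Hoxa5 was above Hoxa9 in each of the 3 libraries. Hoxa6 stood at 0.967 ± 0.608 CPM per kilobase in Vec and could not be ordered against Hoxa9, being lower in 2 of 3 libraries. Hoxa4, Hoxa3 and Hoxa2 formed a lower step in Vec, at 0.307 ± 0.0935, 0.236 ± 0.0504 and 0.222 ± 0.173 CPM per kilobase, with ranges that overlapped from each to the next. Hoxa10 stood at 0.0261 ± 0.0228 CPM per kilobase in Vec and Hoxa11 at 0. Of the 9 genes, Hoxa10 had 15 counts in all 9 libraries together and Hoxa11 had 2.

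**Figure D1:**
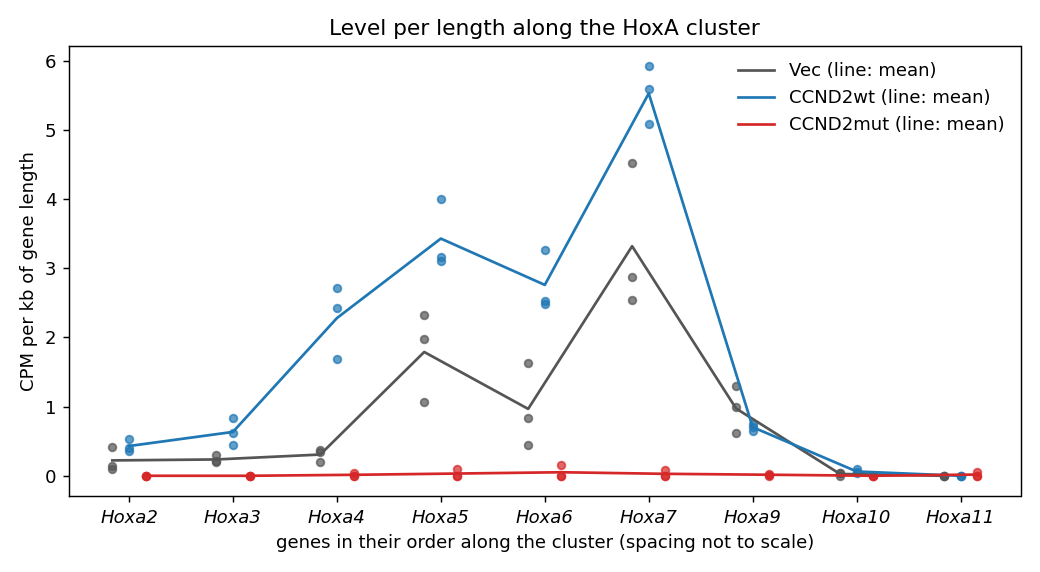
Level per length along the HoxA cluster, as CPM per kilobase of gene length, for the 9 genes in cluster order, with 1 point per library and a line through each group's means. Vec and CCND2wt peak at Hoxa7 (3.32 and 5.53 CPM per kilobase), CCND2wt lies above Vec from Hoxa2 to Hoxa7 but not at Hoxa9, and CCND2mut lies near 0 throughout.

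In CCND2wt the peak was again at Hoxa7 (5.53 ± 0.424 CPM per kilobase), followed by Hoxa5 at 3.43 ± 0.500, Hoxa6 at 2.76 ± 0.445 and Hoxa4 at 2.28 ± 0.529. The ranges of Hoxa5 and Hoxa6 overlapped, as did those of Hoxa6 and Hoxa4. Per length, though not by CPM, Hoxa4 lay above Hoxa9 (0.703 ± 0.0504 CPM per kilobase) in every CCND2wt library with no overlap, whereas in Vec Hoxa9 lay above Hoxa4 with no overlap (0.620 to 1.30 against 0.201 to 0.379). Hoxa9 and Hoxa3 (0.634 ± 0.197 CPM per kilobase) could not be ordered in CCND2wt. Hoxa2 followed at 0.430 ± 0.0957 and Hoxa10 at 0.0620 ± 0.0370 CPM per kilobase, and Hoxa11 again had 0 counts.

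The first comparison set CCND2wt against Vec. Genes from Hoxa2 to Hoxa7 stood higher in CCND2wt and Hoxa9 did not, but the test called only Hoxa3 and Hoxa4, and Hoxa3 narrowly. Of the 9 genes 7 passed the filter on low counts, which asks for about 0.600 CPM in 3 libraries. Hoxa3, Hoxa5, Hoxa7 and Hoxa9 passed on the Vec libraries alone. Hoxa2, Hoxa4 and Hoxa6 passed only through CCND2wt, where they were higher, so that their direction is in part set by the filter. In edgeR 2 of the 7 rose and 0 fell, where 9.71% of all 15660 tested genes rose and 9.05% fell. None of the 7 fell at an unadjusted p under 0.05 (0 in edgeR) and 0 fell in DESeq2, while 3 rose at an unadjusted p under 0.05 and 2 in DESeq2. The median log2 fold change of the 7 was 0.96, against -0.04 over all tested genes.

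Hoxa4, one of the genes at the anterior end of the cluster, differed most. It had 10, 8 and 5 counts (0.603, 0.543 and 0.321 CPM) in Vec 1, 2 and 4, and 82, 68 and 49 counts (4.34, 3.85 and 2.70 CPM) in CCND2wt 2, 3 and 4. Every CCND2wt library was thus several-fold above every Vec library. Hoxa4 rose by 2.87 on the log2 scale (SE 0.477, edgeR adjusted p = 0.00586). With the 3 CCND2wt libraries summed to 1 sample it had adjusted p = 0.224 (2.91), the highest of a range that started at 2.75e-06 over 17 other settings.

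Hoxa3, which in the mouse embryo is needed for the thymus and parathyroid, had 21, 26 and 19 counts (1.27, 1.77 and 1.22 CPM) in Vec. It had 95, 47 and 68 counts (5.03, 2.66 and 3.74 CPM) in CCND2wt, with no overlap between groups. Hoxa3 rose by 1.42 (SE 0.377, edgeR adjusted p = 0.0441). This call was lost in 9 of 17 other settings, where its adjusted p ranged from 0.0126 to 0.426. Leaving out Vec 1, 2 or 4 gave adjusted p = 0.0886, 0.0652 or 0.119, leaving out CCND2wt 2, 3 or 4 gave 0.166, 0.0755 or 0.138, and a replicate block in edgeR gave 0.131.

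Hoxa7, the most abundant HoxA RNA here, stood at 8.27, 13 and 7.31 CPM in Vec 1, 2 and 4 and at 17.0, 14.6 and 16.1 CPM in CCND2wt 2, 3 and 4. The groups did not overlap, yet Vec 2 came close to the lowest CCND2wt library. The difference of 0.74 (SE 0.489) was not called (edgeR adjusted p = 0.314). Hoxa5, needed in the mouse for lung and rib patterning, stood at 1.99, 4.35 and 3.72 CPM in Vec and at 7.51, 5.83 and 5.94 CPM in CCND2wt. It too did not overlap between groups and was not called (0.94, SE 0.543, edgeR adjusted p = 0.251). Hoxa6 stood at 0.724, 1.43 and 0.385 CPM in Vec and 2.17, 2.21 and 2.86 CPM in CCND2wt. Its difference of 1.51 (SE 0.603) had an edgeR adjusted p of 0.112 and passed in 1 of 17 other settings (0.0485 with only these 2 groups fitted, within a range of 0.0485 to 0.586). In all, 5 of the 7 tested members did not overlap and were higher in CCND2wt, where this held for 24.6% of all tested genes. Of these 5, Hoxa4 and Hoxa6 had passed the filter only through CCND2wt, so the count is no measure against that share. Of the 4 members that passed on Vec alone, 1 (Hoxa3) was called higher.

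Hoxa9 and Hoxa2 overlapped between the groups. Hoxa9 stood at 5.55, 7.27 and 3.46 CPM in Vec 1, 2 and 4, and at 3.97, 3.63 and 4.18 CPM in CCND2wt 2, 3 and 4, so that all CCND2wt values lay inside the range of Vec. Its difference was -0.47 (SE 0.459, edgeR adjusted p = 0.508). Hoxa2, a gene of hindbrain patterning, had 3, 11 and 4 counts in Vec and 18, 11 and 13 in CCND2wt (0.96, SE 0.607, edgeR adjusted p = 0.307). Hoxa10, which like Hoxa9 is known from blood progenitors, had 2, 2 and 0 counts in Vec and 3, 6 and 2 in CCND2wt and was not tested.

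**Figure D2:**
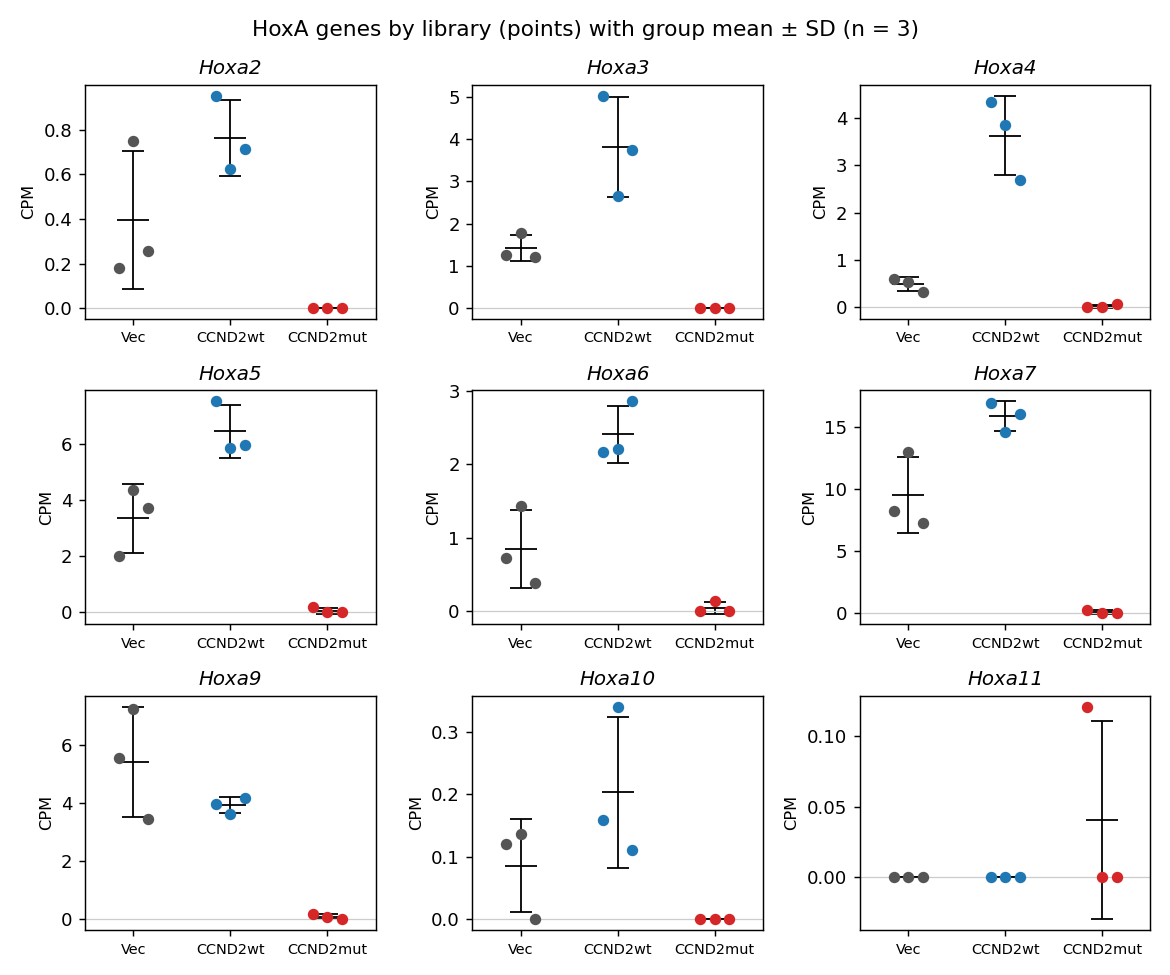
Level of each of the 9 HoxA genes in CPM (vertical axes, each with its own scale starting near 0), with 1 point per library and the group mean ± SD (n = 3) in black. Hoxa3, Hoxa4, Hoxa5, Hoxa6 and Hoxa7 are higher in all CCND2wt libraries than in any Vec library, Hoxa9 overlaps between those groups (3.63 to 4.18 against 3.46 to 7.27 CPM), and CCND2mut lies at or near 0.

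The make-up of the HoxA RNA in Vec and CCND2wt is given as a description, since 3 against 3 libraries cannot pass a test of it. The 9 genes summed to 310, 431 and 260 counts in Vec 1, 2 and 4 (18.7, 29.3 and 16.7 CPM) and to 778, 596 and 660 in CCND2wt 2, 3 and 4 (41.2, 33.8 and 36.3 CPM). Hoxa7 made up a like share in both, 44.2% ± 0.351 in Vec and 43.0% ± 1.43 in CCND2wt. Hoxa9 made up 25.1% ± 4.46 in Vec (20.8 to 29.7%) and 10.6% ± 0.933 in CCND2wt (9.64 to 11.5%), with no overlap. Hoxa4 made up 2.34% ± 0.774 and 9.77% ± 2.09, and Hoxa5 15.9% ± 5.93 and 17.3% ± 0.95. Counted against Hoxa7 in the same library, Hoxa9 had a ratio of 0.672, 0.557 and 0.474 in Vec 1, 2 and 4. The ratio was 0.233, 0.248 and 0.260 in CCND2wt 2, 3 and 4, below every Vec library. An exact two-sided permutation test of this ratio gave p = 0.1, the smallest that 3 against 3 libraries allow (adjusted p = 0.15 over 3 ratios chosen after the values were seen). The ratio of Hoxa4 to Hoxa7 also gave p = 0.1 in the exact test (0.0528 ± 0.0175 in Vec, 0.229 ± 0.0529 in CCND2wt), and that of Hoxa5 to Hoxa7 gave p = 0.6.

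**Figure D3:**
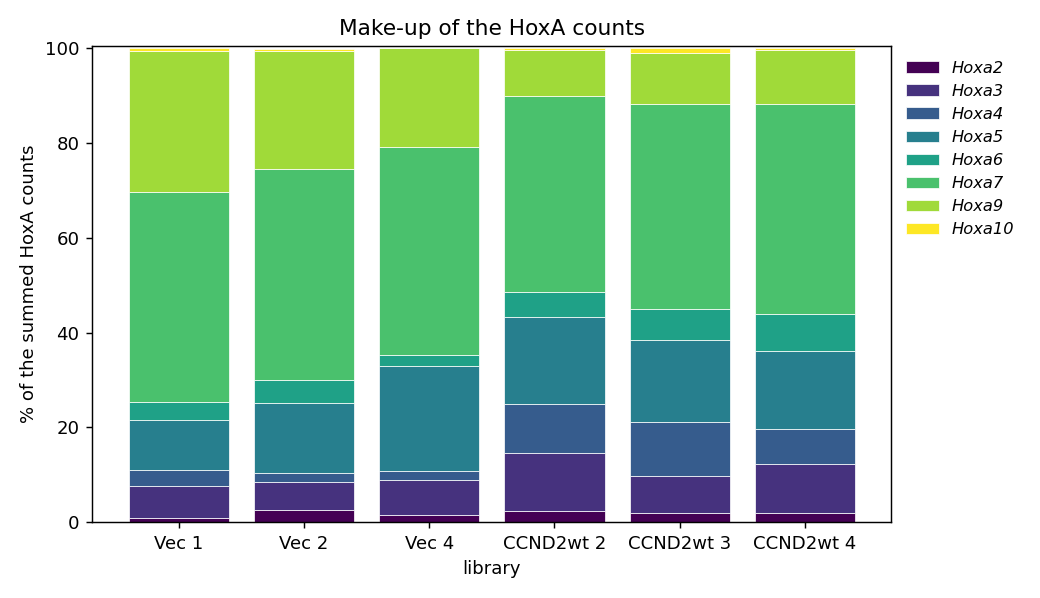
Share of each HoxA gene in the summed counts of the 9 genes (vertical axis, percent) in the 3 Vec and 3 CCND2wt libraries; Hoxa11 had 0 counts in these. Hoxa7 takes 43.0 to 44.2% on average in both groups, while Hoxa9 takes 20.8 to 29.7% in Vec libraries and 9.64 to 11.5% in CCND2wt libraries.

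CCND2mut was compared with Vec and with CCND2wt. HoxA RNA was almost absent from the libraries labelled CCND2mut. The 9 genes summed to 12, 3 and 1 counts in CCND2mut 1, 2 and 3 (0.729, 0.200 and 0.0664 CPM), against at least 260 counts in every other library. Each of the 7 tested members was lower than in Vec (7 fell and 0 rose in edgeR, and 0 rose at an unadjusted p under 0.05 or in DESeq2), where 26.9% of all tested genes fell and 24.9% rose. The same 7 fell and 0 rose against CCND2wt, where 23.8% of all tested genes fell and 23.2% rose. None of the 7 overlapped between groups, as for 29.2% of all tested genes that were lower against Vec and 32.2% against CCND2wt. No CCND2mut library reached the level of the filter for any member. All 7 were thus tested through groups in which they were higher, so these counts are no measure against those shares. The 4 members that passed on Vec alone likewise passed through a group in which they were higher than in CCND2mut. Of them 4 fell against Vec and 4 against CCND2wt, which is no measure against those shares either. The median log2 fold change against Vec was -5.71 as fitted, or -4.45 with the members at 0 set to their bounds, against -0.03 over all tested genes. Both comparisons share the CCND2mut libraries, so they are not independent of each other.

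Hoxa7 had 4, 0 and 0 counts in CCND2mut 1, 2 and 3, against 114 to 192 per library in Vec and 258 to 322 in CCND2wt. It fell by 6.69 against Vec (SE 0.736, edgeR adjusted p = 0.000188) and by 7.42 against CCND2wt (SE 0.742, edgeR adjusted p = 0.000125). Hoxa9 had 3, 1 and 0 counts in CCND2mut, against 54 to 107 in Vec and 64 to 76 in CCND2wt. From CCND2wt it fell by 5.40 (SE 0.650, edgeR adjusted p = 0.000291), and by 5.87 from Vec. Hoxa5 had 3, 0 and 0 counts, so that its summed level in Vec was 51.2 times that in CCND2mut (95% counting interval 17.2 to 251; edgeR adjusted p = 0.000643). No CCND2mut library reached the lowest library of another group for any of these 3 genes.

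Hoxa3 had 0 counts in all 3 CCND2mut libraries, which allows up to 0.182, 0.200 and 0.199 CPM in CCND2mut 1, 2 and 3. Against a floor of 3 counts over the group it was at least 21.8-fold lower than in Vec and at least 59.5-fold lower than in CCND2wt (edgeR adjusted p = 0.000374 and 0.000163). Hoxa2 also had 0 counts there and was at least 5.95-fold lower than in Vec and at least 11.9-fold lower than in CCND2wt. Hoxa4 had 1 count, in CCND2mut 3, and a level in Vec 22.8 times as high (95% counting interval 3.70 to 940). Hoxa6 had 2 counts, both in CCND2mut 2, with a ratio of 19.3 (95% counting interval 5.01 to 165). Hoxa10 had 0 counts and was at least 3.12-fold lower than in CCND2wt, while the 4 counts of Vec allow no more than a 1.32-fold bound. Hoxa11, a gene of limb and uterus development, had 2 counts in CCND2mut 1 and 0 in all other libraries. The intervals and bounds cover counting error only.

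Of the 16 HoxA counts in this group 12 came from CCND2mut 1. Summed levels of cell type markers also differed between libraries and groups. The summed level of 8 neutrophil markers, of which 1 rose against Vec and 5 rose against CCND2wt in CCND2mut in edgeR (0 fell), was 13973, 470 and 557 CPM in Vec 1, 2 and 4, 134 to 241 CPM in CCND2wt, and 18201, 2726 and 3778 CPM in CCND2mut 1, 2 and 3. The 7 markers of stem and progenitor cells summed to 1985 to 2533 CPM in Vec, 2533 to 2600 CPM in CCND2wt and 504 to 1329 CPM in CCND2mut, where 4 of the 6 tested fell against Vec and 0 rose. In CCND2wt 2 of the 6 fell against Vec and 0 rose, although the sum was not lower there. Vec 1 had the highest neutrophil, erythroid and B cell levels of its group. In the same library Hoxa3, Hoxa6, Hoxa7 and Hoxa9 lay between Vec 2 and Vec 4. There Hoxa2 and Hoxa5 were the lowest of the group and Hoxa4 the highest. Mast cell markers (5 genes) summed to 7047 to 9730 CPM in Vec, 15773 to 16282 CPM in CCND2wt and 1168 to 9587 CPM in CCND2mut, although 3 of the 5 rose in CCND2mut against Vec. In CCND2wt against Vec 4 of the 5 mast cell markers rose and 0 fell. Erythroid markers summed to 138 to 15819 CPM in Vec, 1034 to 1240 in CCND2wt and 31.3 to 271 in CCND2mut, where 6 of 6 fell against Vec and 0 were called against CCND2wt. Stromal markers summed to 73.3 to 93.4, 35.6 to 37.3 and 35.5 to 41.9 CPM. B cell markers summed to 77.8 to 1129, 28.8 to 32.7 and 23.1 to 77.4 CPM (against Vec 5 of 5 fell in CCND2mut and 3 of 5 in CCND2wt), and T and NK cell markers to 24.2 to 47.5, 21.4 to 24.5 and 34.8 to 54.0 CPM, in the same order of groups. Beside these marker counts, 26.9% of all tested genes fell and 24.9% rose in CCND2mut against Vec. The shares that fell and rose were 23.8% and 23.2% in CCND2mut against CCND2wt, and 9.05% and 9.71% in CCND2wt against Vec. Among the progenitor markers Mycn was at 0 in all 3 CCND2mut libraries and in CCND2wt 2 and 3, and Mecom in CCND2mut 2 and 3 and in CCND2wt 3. The part of these cell types in the HoxA differences was not tested, and in bulk marrow fewer cells of a type and less RNA per cell cannot be told apart. Without both Vec 1 and CCND2mut 1, a setting fixed with earlier results known, 7 members fell in CCND2mut against Vec and 2 rose in CCND2wt, as in the fit of all libraries.

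Neighbours inside and beside the cluster were examined next. The antisense RNA Hotairm1, a myeloid RNA in human cells, lies next to Hoxa2 on the plus strand. Hotairm1 had 9, 11 and 6 counts in Vec 1, 2 and 4, 60, 57 and 58 in CCND2wt 2, 3 and 4, and 0 in every CCND2mut library. Every CCND2wt library was thus above every Vec library. In CCND2wt it was higher by 2.51 (SE 0.370, adjusted p = 0.00704 in edgeR), and it was at least 8.59-fold lower in CCND2mut than in Vec. It passed the filter only through CCND2wt.

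Hoxaas3, which runs antisense to Hoxa3 to Hoxa7, was detected in every CCND2mut library, unlike the 9 HoxA genes, Hotairm1 and Hoxaas2, with 5, 2 and 1 counts in CCND2mut 1, 2 and 3. It had 10, 9 and 10 counts in Vec and 19, 14 and 19 in CCND2wt, fell by 1.81 in CCND2mut against Vec (SE 0.509, edgeR adjusted p = 0.0163) and was not called in CCND2wt against Vec (0.61, adjusted p = 0.337). Hoxaas2 averaged 0.416 ± 0.346 CPM over Vec and 0.495 ± 0.296 CPM over CCND2wt, with 0 counts in CCND2mut. Hoxa13 and the RNA Hottip, beyond Hoxa11, had 0 counts in all libraries.

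**Figure D4:**
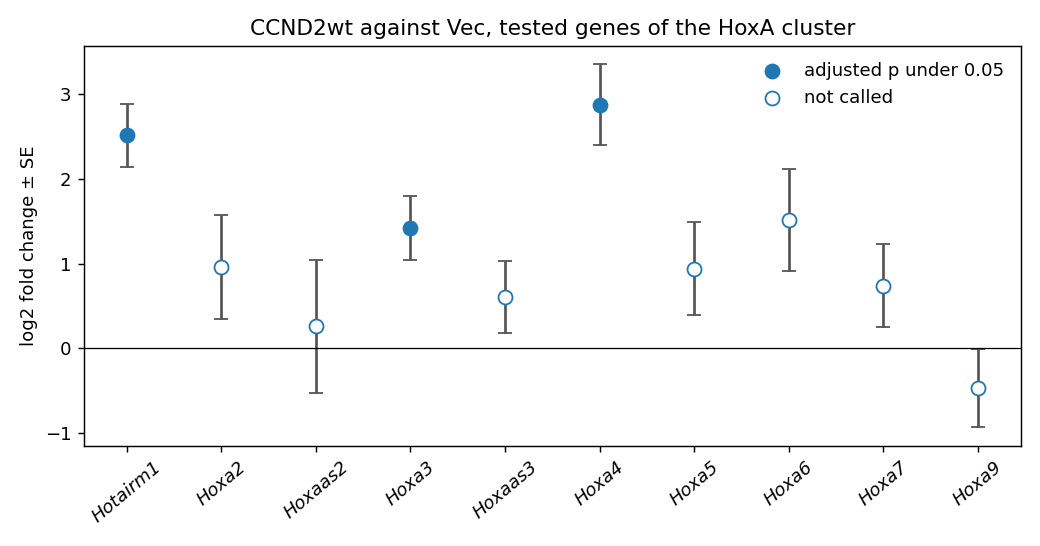
Log2 fold change ± SE of CCND2wt against Vec (vertical axis) for 10 tested genes and antisense RNAs of the HoxA cluster in order of their start coordinates; filled points passed an adjusted p of 0.05. Hotairm1, Hoxa3 and Hoxa4 were called, with values from 1.42 to 2.87, and Hoxa9 stands at -0.47.

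Set apart here were entries whose names begin with Hoxa, and Hotairm1, Hottip, Gm28308 and the RNA Halr1. Another 38 genes lay within 500 kb of the first or last member, some of them inside the cluster. Of the 38 genes 5 were tested, all of them outside the cluster. Against Vec, 3 of the 5 rose and 0 fell in CCND2mut in edgeR, where 24.9% of all tested genes rose and 26.9% fell. Skap2, an adaptor protein of blood cells on the Hoxa2 side, went from 84.9 ± 1.38 CPM in Vec to 91.8 ± 3.24 in CCND2wt (0.11, edgeR adjusted p = 0.626) and rose by 0.44 in CCND2mut against Vec (adjusted p = 0.0352). On the Hoxa11 side, Hibadh, a mitochondrial enzyme of valine breakdown, rose by 0.35 (edgeR adjusted p = 0.0311). Tax1bp1, an autophagy receptor, rose by 0.58 in CCND2mut (edgeR adjusted p = 0.0285) and fell by 0.83 in CCND2wt (adjusted p = 0.0177), both against Vec. None of the 5 tested flanking genes was thus called lower in CCND2mut.

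Some cofactors of HOX proteins were lower in CCND2mut and others were not called. Of 9 TALE homeodomain genes 7 were tested, and 4 fell and 0 rose in CCND2mut against Vec, where 26.9% of all tested genes fell and 24.9% rose. Their median was -2.73, against -0.03 over all tested genes. Pbx2 (-0.18, edgeR adjusted p = 0.303), Pknox1 (0.06, adjusted p = 0.775) and Pbx3 (-0.01, adjusted p = 0.971) were not called. In CCND2wt against Vec 1 rose and 1 fell, where 9.71% of all tested genes rose and 9.05% fell. Meis1, the main partner of HOXA9 in leukaemia, stood at 87.6, 194 and 97.3 CPM in Vec 1, 2 and 4. It stood at 47.5, 45.9 and 50.0 CPM in CCND2wt 2, 3 and 4, and at 5.04, 0.668 and 0.332 CPM in CCND2mut 1, 2 and 3. Its difference from Vec was not called in CCND2wt (-1.40, SE 0.675, edgeR adjusted p = 0.176) and was called in CCND2mut (adjusted p = 0.000717). Pbx4 was called in both comparisons with Vec in edgeR, at -1.36 (SE 0.269, adjusted p = 0.0116) for CCND2wt and -2.81 (SE 0.286, adjusted p = 0.000134) for CCND2mut. Meis3 fell by 2.73 in CCND2mut, from 1.47 ± 0.466 to 0.220 ± 0.270 CPM. Pbx3, named after its values were seen as the 1 riser, went from 4.67 ± 1.43 CPM in Vec to 34.6 ± 3.85 in CCND2wt (2.89, SE 0.307, edgeR adjusted p = 0.00114) and stood at 4.63 ± 1.37 in CCND2mut.

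Of 12 genes reported downstream of HOXA9 in blood progenitors or leukaemia, all 12 were tested. In CCND2mut against Vec 9 fell and 2 rose (26.9% and 24.9% of all tested genes), with a median of -2.34 against -0.03 over all tested genes. In CCND2wt against Vec 2 fell and 1 rose in edgeR, beside 9.05% and 9.71% of all tested genes, with a median of -0.69 against -0.04. At an unadjusted p under 0.05 in edgeR 6 fell and 1 rose, and in DESeq2 5 fell and 1 rose. Flt3, a cytokine receptor of early progenitors, averaged 97.6 ± 42.7 CPM (Vec), 31.3 ± 4.08 CPM (CCND2wt) and 7.37 ± 3.27 CPM (CCND2mut). Relative to Vec it fell by 1.64 in the libraries labelled CCND2wt (edgeR adjusted p = 0.0237) and fell by 3.72 in CCND2mut (adjusted p = 0.000259). Trib2, a pseudokinase that lowers C/EBP-alpha, fell by 3.67 in CCND2mut (edgeR adjusted p = 0.000434) and stood at -1.18 in CCND2wt (adjusted p = 0.0849). Pim1, a survival kinase, went from 1312, 2291 and 1714 CPM in Vec to 633, 854 and 360 in CCND2wt and 212, 309 and 141 in CCND2mut. Bcl2, a survival gene named after its values were seen, was 1 of the 2 that rose in CCND2mut (1.54, SE 0.236, edgeR adjusted p = 0.000893), and it also rose in CCND2wt (1.17, SE 0.234, adjusted p = 0.0119).

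**Figure D5:**
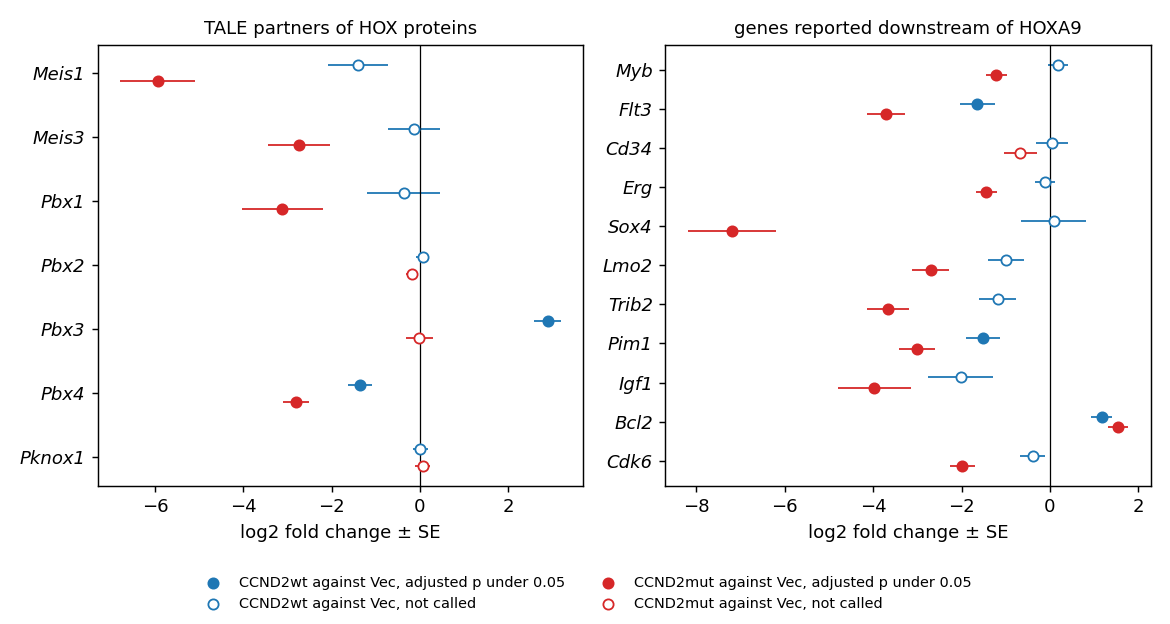
Log2 fold change ± SE against Vec (horizontal axis) of the tested TALE partners (7 genes, left) and of 11 of the 12 genes reported downstream of HOXA9 (right; drawn where each group had over 3 counts), in CCND2wt (blue) and CCND2mut (red); filled points passed an adjusted p of 0.05. In CCND2mut 4 partners and 9 downstream genes fell, with Meis1 at -5.94 and Flt3 at -3.72.

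Known regulators of the cluster were called in both directions, as were genes at large. Of 15 genes that act to keep HoxA genes active 12 were tested, and in CCND2mut against Vec 5 rose and 4 fell, beside 24.9% and 26.9% of all tested genes. Mllt3, a partner of KMT2A in leukaemia and part of the elongation machinery, averaged 15.6 ± 2.58 CPM (Vec), 24.7 ± 3.24 CPM (CCND2wt) and 2.67 ± 1.21 CPM (CCND2mut; -2.55 against Vec, SE 0.349, edgeR adjusted p = 0.000519). Ash2l and Wdr5, core subunits of the KMT2 methyltransferase complexes, rose by 1.65 (SE 0.155) and 0.93 (SE 0.0963) in CCND2mut. In CCND2wt 2 of the 12 rose and 1 fell, beside 9.71% and 9.05% of all tested genes. Of 20 Polycomb and associated genes, all 20 tested, 6 rose and 8 fell in CCND2mut against Vec, and 3 rose and 4 fell in CCND2wt. Ezh1, a histone H3 methyltransferase, fell by 1.31 (SE 0.0897) and Phc1, a PRC1 subunit, from 36.2 ± 4.45 to 10.4 ± 1.86 CPM in CCND2mut, while Cbx7, which binds methylated histone H3, fell by 0.67 there and by 1.31 in CCND2wt.

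The other Hox clusters gave little RNA. Of 28 HoxB, HoxC and HoxD genes (29 entries, since Hoxd4 has 2) 11 had at least 1 count and 1 was tested, Hoxb4. Hoxb4 stood at 5.73, 6.32 and 3.01 CPM in Vec 1, 2 and 4, at 0, 0 and 0.0550 in CCND2wt 2, 3 and 4, and at 2.61, 0.0668 and 1.86 in CCND2mut 1, 2 and 3. It was thus lowest in CCND2wt, the group in which Hoxa4, its paralogue, was highest.

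Genes with a profile like that of a HoxA gene over the 9 libraries were listed by Pearson's r of log2(CPM + 1) among 12693 protein-coding genes outside the cluster. Hoxa7 was most like Pcdhb17, a protocadherin (r = 0.9985), Snx7, a sorting nexin (0.9963), and Rtl8a (0.9961). Among the genes most like Hoxa9 were Letm2 (0.9966) and Zfp711 (0.9921), and Hoxa5 most like Hmga2 (0.9949), a chromatin protein of fetal stem cells, Trpm4 (0.9949) and Pcdhb20 (0.9941). Such values are common when libraries fall into 3 groups, and 594 genes (4.68%) had an r of at least 0.95 with Hoxa7. Among the tested members themselves, r was 0.981 for Hoxa5 with Hoxa7 and 0.952 for Hoxa7 with Hoxa9, and lowest, 0.586, for Hoxa4 with Hoxa9. All points share the libraries, so these values describe the profiles and carry no test.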

How the data were processed

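The authors deposited raw read counts per gene for 9 libraries of total RNA from mouse bone marrow. Per the submitters' processing notes CASAVA 1.8, fastp, HISAT2 2.0.5, featureCounts 1.5.0-p3 and DESeq2 1.20.0 were used with mm10, and per the labels' protocols an NEBNext Ultra RNA kit was used for library preparation. Gene lengths are those in the deposited table. Columns were joined to groups by sample title, with 0 columns left over.

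All libraries were fitted together in edgeR 4.0.16 (R 4.3.3, limma 3.58.1): filterByExpr kept 15660 genes, scaling was by TMM, and the robust quasi-likelihood model had 6 residual degrees of freedom. The test was tried on simulated data first. DESeq2 1.42.0 and other settings were alternatives. Ratios of summed counts used exact 95% binomial intervals. Deviations of same-numbered libraries from their group means had correlations of -0.0727 to 0.187 over 6 pairs. The highest were Vec 1 with CCND2mut 1 (0.187) and Vec 2 with CCND2mut 2 (0.153). Differently numbered pairs of Vec and CCND2mut reached 0.122, and those of Vec and CCND2wt 0.259. The labels do not pair the samples, so the numbers were not taken to pair them, but these values cannot exclude a pairing.

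Named genes were the 9 members, the 3 genes most like a member, tested genes within 500 kb, and the 3 members of each list with the smallest adjusted p in CCND2mut against Vec. Members and lists were chosen with earlier results of these data known, so no p-value was adjusted over a list. Marker lists covered 8 kinds of cell. Some genes that these rules name are not reported here.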

Additional observations from a re-analysis of the deposited data

How the results depend on the processing

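The fall of 7 HoxA members in CCND2mut held to within 1 member under all 17 other settings against CCND2wt. Against Vec it held to within 1 member except in the fit of only the 2 groups compared. There 4 fell because only 4 members passed the filter. With the stricter filter 6 members were tested, and 6 fell in both comparisons. The count of members higher in CCND2wt than in Vec, 2 in the fit reported, was 1 with no filter, 1 with the replicate block 3 with only the 2 groups compared and 0 with the CCND2wt libraries summed to 1 sample. It ranged from 1 to 2 with 1 library left out, since Hoxa3 passed or missed the threshold. No member changed direction in any setting. Of the single log2 fold changes, 10 calls in CCND2wt against Vec were lost and 1 was gained, 0 changed in CCND2mut against Vec, and 1 was lost against CCND2wt (Hoxa2, adjusted p = 0.0618 in edgeR with the CCND2wt libraries summed). Over all genes, calls in CCND2wt against Vec went from 2938 to 1636 with the block, 1044, 1194 and 1019 without CCND2wt 2, 3 or 4, 39 with those libraries summed and 4470 without both Vec 1 and CCND2mut 1; calls in CCND2mut against CCND2wt went from 7360 to 2378 with the libraries summed. The replicate numbers do not pair the samples by their labels. By CPM, not divided by length, Hoxa9 ranked 2 among the members in Vec and 3 in CCND2wt, and by CPM per kilobase 3 and 5. In CCND2wt Hoxa6 went from rank 3 per kilobase to 6 by CPM and Hoxa4 from 4 to 5. The CCND2wt mean of Hoxa4, 3.63 CPM, lay below the 3.93 CPM of Hoxa9, although Hoxa4 lay above Hoxa9 by CPM in CCND2wt 2 and 3. Depth limits Hoxa10 and Hoxa11, with 15 and 2 counts in all, and every CCND2mut value.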
